A study of Mus musculus with 16 samples.

Results

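Kallikreins and epithelial serine proteases were followed here through 10 genes: Klk1, Klk10, Klk15, Prss8, Prss22, Prss27, Prss32, Tmprss2, St14 and the inhibitor Spint1. They were picked by symbol from a table of 54392 gene symbols. The set was proposed with diet differences in these libraries in view. The diet values of the 10 genes are therefore given as a description, and how many passed the threshold is printed only beside the share over all genes. Of the 10, 8 passed the filter on low counts. Klk10 and Prss22 did not, and they are described by their counts.

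RNA-seq was made from colonocytes, the absorptive and secretory lining cells of the large bowel. The mice were C57BL/6, with no transgene or mutant allele named in the labels, and ate their diet for 3 weeks. The corn oil/cellulose group (9 libraries) received a vegetable oil with an insoluble, poorly fermented fibre. The fish oil/pectin group (7 libraries) received a marine oil with a soluble, fermentable fibre. Oil and fibre changed together, so the part of either cannot be told apart. The sources used here do not give the age or sex of the mice.

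Trypsin-like serine proteases are made as inactive precursors and become active when another protease cuts them. Tissue kallikrein (Klk1) releases kinins from kininogen, while matriptase (St14) and prostasin (Prss8) form a cascade on the epithelial cell surface. Prostasin is also known as a channel-activating protease because it promotes cleavage of the epithelial sodium channel. The Kunitz-type inhibitors Spint1 and Spint2 hold both enzymes in check, and loss of this balance is known to damage the gut lining.

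The catalytic core that unites the 9 proteases is shown by a coding stretch of 30 bases in each, read from GENCODE M21 transcripts on GRCm38. The first capitals mark the codon of the aspartate at the base of the specificity pocket, which selects for cleavage after arginine or lysine. The second capitals mark the codon of the active-site serine.
Klk1: GACacttgtgcgggtgacTCAggaggccca
Klk10: GACtcttgccagagtgacTCCggtggcccc
Klk15: GACtcctgtgagggtgacTCCggaggaccc
Prss8: GATgcctgccagggtgacTCTgggggccca
Prss22: GATgcttgtctgggcgacTCTgggggtccc
Prss27: GACgcctgtaagggtgacTCTggaggccca
Prss32: GATgcttgtaatggtgatTCCggaggtccc
Tmprss2: GACtcttgccagggagacAGTggagggccg
St14: GACtcctgccagggtgacTCTggtggcccc

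Each of the 9 carried an aspartate codon at the first mark. The serine codon was AGT in Tmprss2 and began with TC in the other 8. In all 9 genes an exon junction fell after base 12 of the stretch, between the 2 marked codons. The stretch bridged the last exons in 8 genes and exons 12 and 13 of 14 in Tmprss2. Spint1 held no such stretch.

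The genes lie in a few places of the genome. Klk10 (chr7:43781035-43785410), Klk15 (chr7:43933740-43939639) and Klk1 (chr7:44225360-44229618), all on the plus strand, sit in the kallikrein cluster. Prss8 lies farther along the same chromosome (chr7:127925716-127930104, minus strand). Prss32 (chr17:23843855-23859779, plus strand), Prss22 (chr17:23993534-23998100, minus strand) and Prss27 (chr17:24038144-24045954, plus strand) share a stretch of chromosome 17. Tmprss2 (chr16:97564682-97611195, minus strand), St14 (chr9:31089402-31131853, minus strand) and Spint1 (chr2:119237362-119249527, plus strand) stand alone.

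Library totals ran from 13996288 to 19331984 counts with corn oil/cellulose and from 16212831 to 19512755 with fish oil/pectin. Library names took 2 forms, with a GC prefix (5 libraries per diet) or without it (4 corn oil/cellulose, 2 fish oil/pectin), and the model took the name form into account. What the forms stand for is not stated. The numbers in the names formed a lower series (4 corn oil/cellulose and all 7 fish oil/pectin libraries) and a higher series (5 corn oil/cellulose libraries), so for the higher series number and diet cannot be told apart. The labels call the libraries biological replicates without saying that each came from its own mouse, and the p-values speak only for the spread from library to library, which may be technical. Summed levels of 11 colonocyte markers were 15166 to 19382 CPM (counts brought to the same total in each library) with corn oil/cellulose and 14596 to 24485 with fish oil/pectin. Sums stayed at or under 4.67 CPM for 10 fibroblast and muscle markers and at or under 1.34 CPM for 6 B and plasma cell markers. Of 12 T and NK cell markers 9 were tested and 7 of these were lower with fish oil/pectin (20.6% of all genes tested were). Their sums were 10.9 to 60.5 CPM with corn oil/cellulose and 11.5 to 30.8 CPM with fish oil/pectin (highest 18.6 without fish oil/pectin library 7). Mast cells, a source of other trypsin-like proteases, had 4 of 12 markers tested, 3 of them lower (beside the same 20.6%). Their sums were 76.9 to 127 CPM against 44.8 to 91.9 (lowest 56.8 without that library), mostly Kit (5.12 to 24.6 CPM without Kit). Sums over 8 markers of squamous epithelium, where many kallikreins are made, stayed at or under 3.37 CPM. A fit with a leukocyte and stromal marker covariate is given with the settings at the end. Apart from that fit, the part of leukocytes and mast cells in any diet value below was not tested. Fish oil/pectin library 7 stood apart: its sum over 6 distal colon markers was 383 CPM, against 605 to 889 in the other 15 libraries. Member values that it moved are given with and without it.

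The 10 genes covered a very wide range of levels. Per kilobase of exon, Klk1 averaged 965 ± 116 CPM (SD, n = 16) and stood at percentile 99.8 of the genes tested. Prss32 followed at 547 ± 75.8 CPM per kilobase, at percentile 99.5. Spint1 averaged 129 ± 18.3 CPM per kilobase, Tmprss2 106 ± 17.1, St14 62.9 ± 7.68 and Prss8 37.2 ± 3.76. Klk15 averaged 9.38 ± 5.99 and Prss27 0.959 ± 0.952 CPM per kilobase, where the SD nearly equals the mean for Prss27. Klk10 and Prss22 were at the bottom, at 0.206 and 0.0278 CPM per kilobase.

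That order was the same in nearly every library. Klk1 exceeded Prss32 in 16 of 16 libraries, and the steps from St14 to Prss8, Prss8 to Klk15, Prss27 to Klk10 and Klk10 to Prss22 also held in 16 of 16. Spint1 exceeded Tmprss2 per kilobase in 14 of 16, and their ranges over libraries overlapped. Tmprss2 exceeded St14 in 15 of 16, and Klk15 exceeded Prss27 in 15 of 16, the exception being fish oil/pectin library 7. The second inhibitor, Spint2, which is no member of the set, averaged 351 CPM per kilobase, between Prss32 and Spint1 in 16 of 16 libraries.

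**Figure D1:**
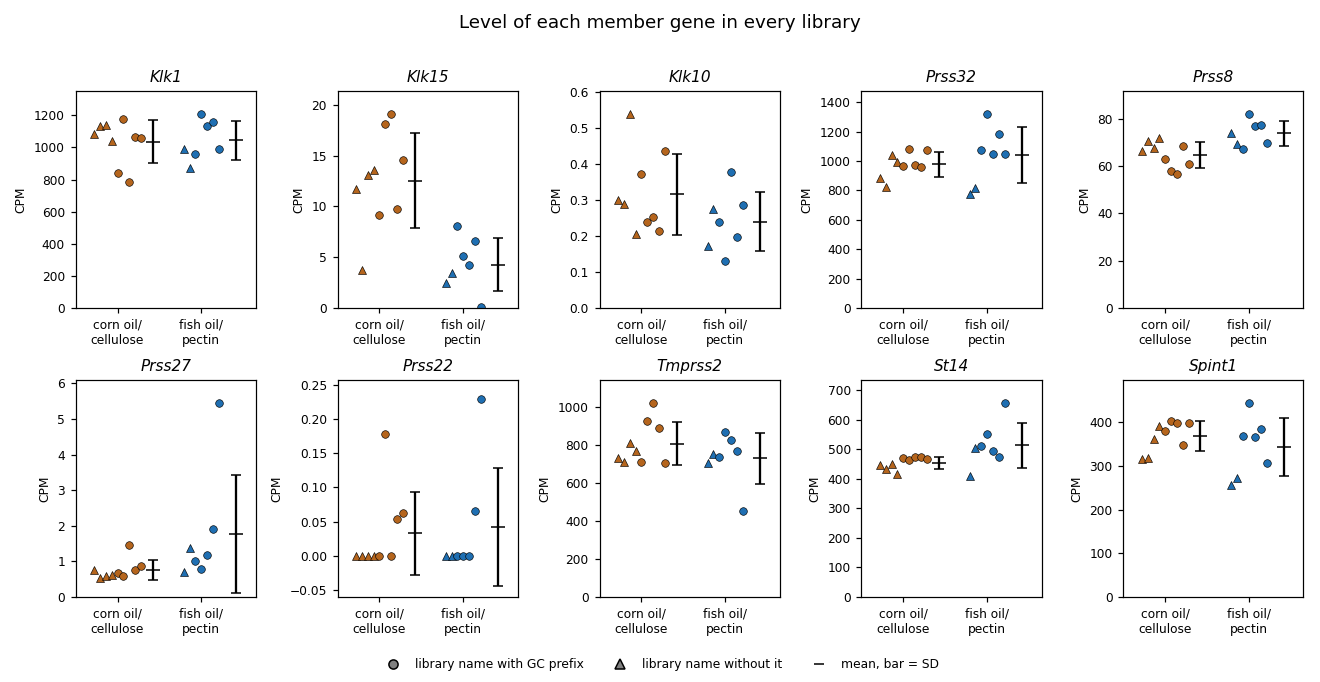
Level of each of the 10 genes in CPM (vertical axes, each from its own scale) in every library of the corn oil/cellulose and fish oil/pectin groups, with circles for names with the GC prefix, triangles for names without it, and the mean with SD at the right of each group. Klk15 sits lower in most fish oil/pectin libraries, while Klk1, Prss32, Tmprss2 and Spint1 overlap broadly, and fish oil/pectin library 7 is the topmost point for Prss27 and the bottom point for Tmprss2.

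Klk1, the kinin-releasing tissue kallikrein, was abundant in every library. Its level ran from 788 to 1175 CPM (median 1067) with corn oil/cellulose and from 873 to 1206 CPM (median 989) with fish oil/pectin. The groups overlapped almost completely, with means of 1036 ± 133 (SD, n = 9) and 1044 ± 122 CPM (SD, n = 7). The log2 fold change, fish oil/pectin against corn oil/cellulose, was 0.01 ± 0.09 (SE). Klk1 stayed within a 1.53-fold range over the 16 libraries.

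Klk1 held 98.8% of all counts assigned to the 22 kallikrein genes between Klk10 and Klk1 (chr7:43781035-44229618). Of the 19 genes there that are not members, 17 averaged under 1 CPM, and the highest averaged 1.61 CPM. That gene, Klk1b4, shares 90.2% of aligned coding bases with Klk1. Klk1b5, the next gene to Klk1, shares 95.1%, with a longest identical run of 145 bases. Reads from such runs could be divided between copies in a way the table does not show, so the low values of Klk1b4 and Klk1b5 are uncertain.

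Klk15, another secreted kallikrein, was the member with the widest diet difference. With corn oil/cellulose it ran from 3.75 to 19.1 CPM (median 13.1), and with fish oil/pectin from 0.0572 to 8.03 CPM (median 4.25). Corn oil/cellulose library 2, at 3.75 CPM, was the lone library of its diet inside the fish oil/pectin range, and library 7 was lowest of all with 1 count. Means were 12.5 ± 4.69 (SD, n = 9) and 4.28 ± 2.65 CPM (SD, n = 7), a log2 fold change of -1.65 ± 0.43 (SE).

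Split by name form, the same libraries showed the lower Klk15 level with fish oil/pectin in each form, given as a description. Among GC-named libraries corn oil/cellulose ran from 9.20 to 19.1 CPM and fish oil/pectin from 0.0572 to 8.03 CPM, with no overlap. Among the others, corn oil/cellulose libraries had 11.7, 3.75, 13.1 and 13.6 CPM and fish oil/pectin libraries 2.41 and 3.48 CPM, again with no overlap. Over all genes tested, 10.2% lacked overlap within both forms in the same direction. The log2 fold change was -1.56 ± 0.53 in GC-named libraries and -1.83 ± 0.81 in the others. Without library 7 the fish oil/pectin mean was 4.98 ± 2.06 CPM (n = 6) and the log2 fold change -1.43. In bulk RNA, fewer cells making a transcript and less of it per cell cannot be told apart. The antisense gene Gm44756 overlaps 520 exon bases of Klk15 and held 4 counts in all libraries together.

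Klk10 was detected at the edge of counting. Each library had 2 to 9 counts, 77 in all, with means of 0.316 ± 0.112 CPM (SD, n = 9) and 0.240 ± 0.0824 CPM (SD, n = 7). The groups overlapped, and no difference was readable at this depth.

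Prss32, a trypsin-like protease, was nearly as abundant in CPM as Klk1. It ran from 823 to 1080 CPM (median 974) with corn oil/cellulose and from 773 to 1317 CPM (median 1049) with fish oil/pectin. The fish oil/pectin libraries spread to both sides of the other group, with its pair of libraries without the GC prefix lowest at 773 and 820 CPM. Means were 977 ± 85.2 and 1038 ± 191 CPM (SD, n = 9 and 7), with a log2 fold change of 0.03 ± 0.08 (SE). Prss32 held 89.3% of the counts of the 5 genes of this family between it and Prss27 (chr17:23843855-24045954). Its exons overlap the antisense gene Gm15947 by 547 bases and Prss41 by 59 bases on the other strand.

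Prss8, or prostasin, is tethered to the outer face of the cell membrane and acts on sodium channel subunits. Its level ran from 56.6 to 71.8 CPM (median 66.4) with corn oil/cellulose and from 67.4 to 81.9 CPM (median 74.2) with fish oil/pectin. Fish oil/pectin libraries were mostly higher, with an overlap between 67.4 and 71.8 CPM. Means were 64.9 ± 5.50 and 73.8 ± 5.29 CPM (SD, n = 9 and 7), and the log2 fold change was 0.20 ± 0.06 (SE). It was 0.28 ± 0.07 in GC-named libraries and 0.05 ± 0.09 in the others. Prss8 shares 122 exon bases with Kat8 on the other strand.

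Prss27, a tryptase-like enzyme also called pancreasin, was low. Its counts were 9 to 23 per library with corn oil/cellulose and 12 to 95 with fish oil/pectin. In CPM these were 0.519 to 1.46 (median 0.684) and 0.690 to 5.44 (median 1.18). The ranges overlapped, and the value of 5.44 came from library 7, far above the next fish oil/pectin library at 1.91. The log2 fold change was 1.09 ± 0.38 (SE) with all libraries and 0.57 without library 7, when the fish oil/pectin mean was 1.16 ± 0.449 CPM (n = 6) against 0.760 ± 0.283 (n = 9).

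Prss22, a secreted tryptase best known from airway lining, was hardly present. It had 10 counts in all and 0 counts in 11 of 16 libraries, where a count of 0 allows up to 0.150 to 0.206 CPM (3 counts, counting error only). Fish oil/pectin library 7 held 4 of the 10 counts and corn oil/cellulose library 6 held 3.

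Tmprss2 spans the membrane and is known for activating the surface proteins of respiratory viruses. It ran from 705 to 1021 CPM (median 768) with corn oil/cellulose and from 454 to 871 CPM (median 754) with fish oil/pectin. The groups overlapped, with library 7 alone at 454 CPM and the next lowest fish oil/pectin library at 707. Means were 810 ± 113 and 732 ± 135 CPM (SD, n = 9 and 7). The log2 fold change was -0.16 ± 0.11 (SE) with library 7 and -0.07 without it.

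St14, the matriptase that activates prostasin, was tightly held with corn oil/cellulose, at 415 to 473 CPM (median 463). With fish oil/pectin it ran from 408 to 655 CPM (median 503). Library 7 was highest, and the lowest fish oil/pectin library lay under all corn oil/cellulose libraries. Means were 455 ± 19.9 and 514 ± 75.9 CPM (SD, n = 9 and 7), with a log2 fold change of 0.15 ± 0.07 (SE) and of 0.10 without library 7.

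Spint1, the Kunitz inhibitor of matriptase and prostasin, ran from 316 to 403 CPM (median 379) with corn oil/cellulose. With fish oil/pectin it ran from 257 to 443 CPM (median 366). The groups overlapped, though the pair of fish oil/pectin libraries without the GC prefix, at 257 and 272 CPM, was below all others. Means were 368 ± 34.0 and 342 ± 66.5 CPM (SD, n = 9 and 7), and the log2 fold change was -0.16 ± 0.08 (SE).

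Among the 8 genes tested, 3 had an adjusted p under 0.05 in the diet contrast (edgeR, adjusted over all genes tested): Prss8 and Prss27 on the higher side and Klk15 on the lower. Over all 13825 genes tested the share was 42.7%, with 22.1% higher and 20.6% lower, and nothing is read from the members' count. No member separated the diets fully (3.41% of all genes did), and Klk15 alone did so within both name forms (10.2% of all genes). The median log2 fold change was 0.02 over the 8 genes and -0.01 over all genes tested, and the median absolute value was 0.16 and 0.22.

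Several of these values moved when each library's trend of counts on exon length was removed, a setting added after seeing the data. Prss8 was then at -0.00024, Klk1 at -0.25 and Prss32 at -0.17. The longer St14 was at 0.28, Spint1 at -0.29 and Prss27 at 0.80. Klk15 remained the most distant from 0, at -1.91. The members past the threshold changed as well. With this setting 4485 genes and 4 members were called: Klk1, Klk15, St14 and Spint1. Prss8 and Prss27 were not called, and nothing is read from the members' count.

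**Figure D2:**
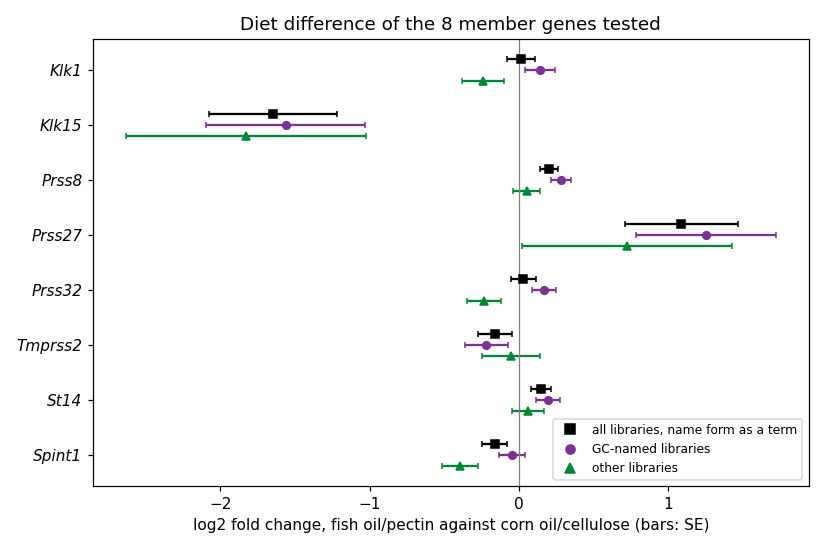
Log2 fold change, fish oil/pectin against corn oil/cellulose (horizontal axis), of the 8 genes tested, from all libraries with the name form as a term (squares), in GC-named libraries (circles) and in the others (triangles), with bars for SE. Klk15 lies far to the left in all 3 fits at -1.65, -1.56 and -1.83, whereas Klk1 and Prss32 lie on opposite sides of 0 in the 2 name forms.

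The name form gave a contrast that the choice of the genes did not use. Spint1 was higher in GC-named libraries by 0.28 ± 0.08 on the log2 scale (edgeR, adjusted p = 0.0124), and Prss32 by 0.26 ± 0.08 (edgeR, adjusted p = 0.0190). These 2 of 8 stand beside 41.1% of all genes tested. Klk15 (0.51 ± 0.43, adjusted p = 0.351) and Prss27 (0.71 ± 0.41, adjusted p = 0.172) had larger values with wide errors and did not pass in edgeR. Without fish oil/pectin library 7 they were at 0.61 (adjusted p = 0.0743) and 0.36 (adjusted p = 0.261, both edgeR). St14 (0.16 ± 0.07, adjusted p = 0.0833) did not pass in edgeR with TMM, but did with upper quartile scaling (0.17, adjusted p = 0.0458) and in limma (0.13, adjusted p = 0.0453). Neither call held when fish oil/pectin library 1 was left out, and that of Prss32 was also lost without library 2. Without fish oil/pectin library 1, Spint1 was at 0.23 (adjusted p = 0.0588) and Prss32 at 0.20 (adjusted p = 0.0873), and without library 2 Prss32 was at 0.23 (adjusted p = 0.0730, all edgeR). Scaled by library totals in place of TMM factors, Prss32 was at 0.18 (edgeR, adjusted p = 0.0572) and Prss8 passed at -0.17 (edgeR, adjusted p = 0.0348).

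Whether a diet difference itself differed between name forms was tested with an interaction term. None of the 8 passed over all genes (edgeR, 8.77% of all genes passed). At an unadjusted p under 0.05 there were 3 of 8 (25.7% of all genes): Klk1, Prss32 and Spint1. Prss32 had a diet log2 fold change of 0.17 ± 0.08 in GC-named libraries and -0.23 ± 0.11 in the others, a difference of 0.40 ± 0.14 (edgeR, adjusted p = 0.0770). For Spint1 the values were -0.04 ± 0.09 and -0.39 ± 0.12, a difference of 0.35 ± 0.15 (edgeR, adjusted p = 0.148). Klk1 had 0.14 ± 0.10 and -0.24 ± 0.14, a difference of 0.38 ± 0.17 (edgeR, adjusted p = 0.173). Without fish oil/pectin library 7 the differences of Prss32 (0.43, adjusted p = 0.0470) and Spint1 (0.41, adjusted p = 0.0437) passed in edgeR. Over all genes that fit called 1669, against 1212 with all libraries, and nothing is read from the members' count.

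Fish oil/pectin library 7 accounted for much of the spread of 4 members. With it and without it, the SD of log2 CPM around the diet and name form means was 1.42 and 0.58 for Klk15, 0.67 and 0.42 for Prss27, 0.26 and 0.15 for Tmprss2, and 0.13 and 0.08 for St14. For Prss8 it was 0.11 either way. Hoxd13, a homeobox gene of the hindmost gut singled out after its values were seen, was at 0.629 CPM in this library and at 23.9 to 101 CPM in the other 15. The keratin Krt20, picked out in the same way, was at 2043 CPM in this library. In the other fish oil/pectin libraries Krt20 ran from 602 to 1231 CPM, and with corn oil/cellulose from 629 to 977 CPM.

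Klk15 was also low in other libraries with little Hoxd13. Corn oil/cellulose library 2 had 25.4 CPM of Hoxd13 and 3.75 CPM of Klk15, the least of its diet, and fish oil/pectin library 1 had 23.9 and 2.41 CPM. Corn oil/cellulose library 1, in contrast, had 42.1 CPM of Hoxd13 with 11.7 CPM of Klk15, and fish oil/pectin library 2 had 70.7 CPM of Hoxd13 with 3.48 CPM of Klk15. The part of colon position in the Klk15 values was not tested.

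**Figure D3:**
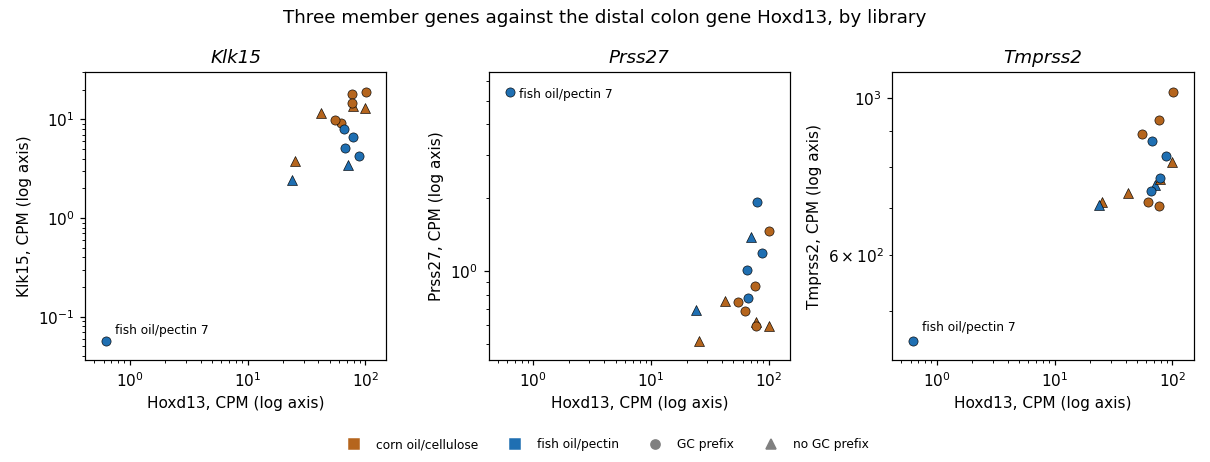
CPM of Klk15, Prss27 and Tmprss2 (vertical log axes) against CPM of Hoxd13 (horizontal log axis) in each library, coloured by diet, with circles for the GC prefix and triangles for names without it. Fish oil/pectin library 7, at 0.629 CPM of Hoxd13, lies apart from the 15 others in all panels, low for Klk15 and Tmprss2 and high for Prss27.

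Enzyme and inhibitor counts were also set against each other within each library, which needs no scaling between libraries. Such ratios still carry each library's trend of counts on exon length, and the ratios were not computed with it removed. Exon lengths were 1.85 kilobases for Prss8, 2.77 for Spint1, 4.56 for Spint2 and 7.64 for St14. The Prss8/Spint1 ratio ran from 0.142 to 0.222 (median 0.184) with corn oil/cellulose and from 0.184 to 0.289 (median 0.211) with fish oil/pectin. The groups overlapped over all libraries. Among libraries without the prefix they did not, at 0.184 to 0.222 against 0.255 and 0.289. Means were 0.179 ± 0.0290 and 0.222 ± 0.0386 (SD, n = 9 and 7).

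The St14/Spint1 ratio averaged 1.24 ± 0.116 with corn oil/cellulose and 1.54 ± 0.340 with fish oil/pectin (SD, n = 9 and 7), with library 7 highest at 2.14. Without library 7 the fish oil/pectin mean was 1.44 ± 0.236 (n = 6). Against Spint2 the pooled means lay close together. Prss8/Spint2 averaged 0.0444 ± 0.00694 and 0.0438 ± 0.0101, and St14/Spint2 0.309 ± 0.0203 and 0.301 ± 0.0620, and the groups overlapped in both. In GC-named libraries Prss8/Spint2 averaged 0.0389 and 0.0380, and St14/Spint2 0.298 and 0.273. In libraries without the prefix fish oil/pectin was on the higher side, with Prss8/Spint2 at 0.0487 to 0.0541 against 0.0576 and 0.0589, without overlap, and St14/Spint2 averaging 0.323 against 0.371.

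The balance between the 2 Kunitz inhibitors was, of the 5 ratios computed, the one whose diets overlapped least. Spint2/Spint1 ran from 3.55 to 4.56 (median 4.10) with corn oil/cellulose and from 4.42 to 6.44 (median 5.11) with fish oil/pectin. Fish oil/pectin library 2, at 4.42, and corn oil/cellulose library 8, at 4.56, were the libraries that overlapped. Means were 4.03 ± 0.306 and 5.14 ± 0.629 (SD, n = 9 and 7), and without library 7 the second was 4.92 ± 0.286 (n = 6). The ratios use members' values and were not tested.

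**Figure D4:**
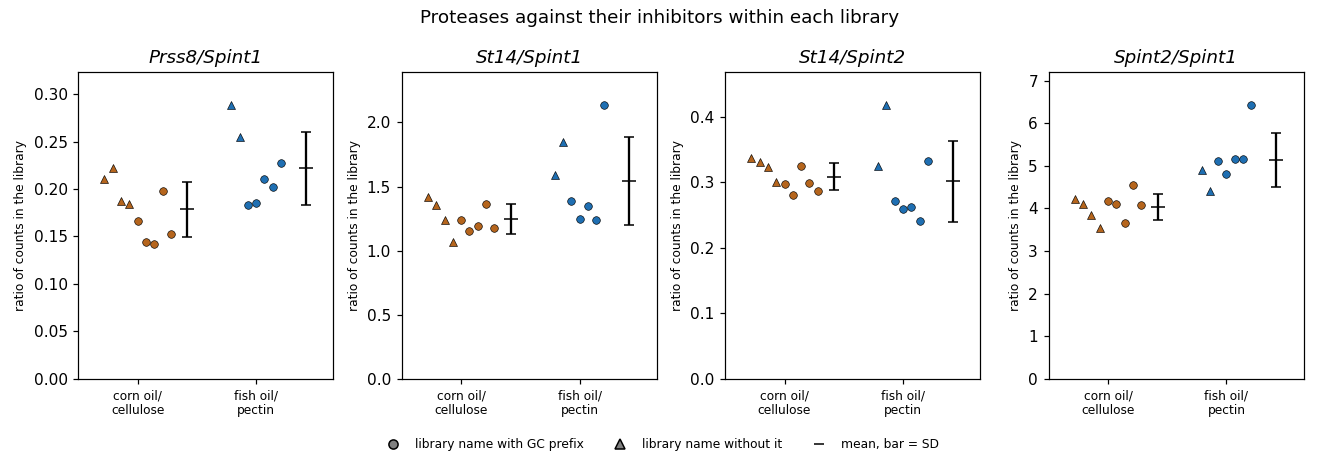
Ratios of counts within each library (vertical axes, from 0) for Prss8/Spint1, St14/Spint1, St14/Spint2 and Spint2/Spint1, by diet, with circles for the GC prefix, triangles for names without it, and the mean with SD at the right. Spint2/Spint1 overlaps in 1 library of each diet only, whereas the St14/Spint2 ranges of the diets overlap widely.

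Genes around these proteases were taken from 5 lists of the same biology, whose choice is described with the processing, and were tested with all other genes. Inhibitors came first: 15 of 37 were tested, 3 rose and 0 fell (22.1% and 20.6% of all genes), with a median log2 fold change of 0.10 against -0.01 over all genes. Spink4, a Kazal-type inhibitor made by goblet cells, rose by 0.61 ± 0.15 (edgeR, adjusted p = 0.00376). Pebp1, which inhibits Raf kinase and some serine proteases, rose by 0.45 ± 0.09 (edgeR, adjusted p = 0.000981). Tfpi2, a Kunitz inhibitor of plasmin, rose by 0.32 ± 0.10 (edgeR, adjusted p = 0.0126). Goblet marker sums, which include Spink4, were 3884 to 11166 CPM with corn oil/cellulose and 3930 to 9647 CPM with fish oil/pectin, and their part in the Spink4 value was not tested.

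Spint2, which inhibits matriptase and prostasin as Spint1 does, ran from 1309 to 1652 CPM (median 1460) with corn oil/cellulose and from 1202 to 2126 CPM (median 1885) with fish oil/pectin. Its diet log2 fold change of 0.16 ± 0.07 did not pass (edgeR, adjusted p = 0.0781), though leaving out fish oil/pectin library 1 gave 0.21 (adjusted p = 0.0365) and leaving out library 2 gave 0.22 (adjusted p = 0.0182). It did differ between name forms, at 0.32 ± 0.06 in GC-named libraries and -0.14 ± 0.08 in the others, a difference of 0.46 ± 0.10 (edgeR, adjusted p = 0.0180). Without fish oil/pectin library 2 the difference was 0.42 (edgeR, adjusted p = 0.154). Serpine2, a serpin that inhibits trypsin-like enzymes including prostasin, had -0.64 ± 0.27 at about 1 CPM (edgeR, adjusted p = 0.0618). It passed without corn oil/cellulose library 3 (-0.69, adjusted p = 0.0433) or 7 (-0.72, adjusted p = 0.0469), or fish oil/pectin library 3 (-0.83, adjusted p = 0.0197).

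The list of substrates and receptors was drawn up broadly and also held proteases (Furin, Pcsk5, Pcsk6 and Pcsk7). Its counts are therefore not counts of targets of the members. Of its 31 genes 19 were tested, 11 fell and 2 rose (20.6% and 22.1% of all genes), with a median of -0.23 against -0.01 over all genes. Without library 7, 20 were tested, 10 fell and 1 rose. Sodium channel subunits are known targets of prostasin. Scnn1g ran from 0.403 to 11.9 CPM (median 3.11) with corn oil/cellulose and from 0 to 1.39 CPM (median 0.654) with fish oil/pectin, the 0 being library 7. The groups overlapped, and Scnn1g fell by 2.75 ± 0.49 on the log2 scale (edgeR, adjusted p = 0.000771). Next lowest after library 7 were fish oil/pectin library 1 (0.345 CPM) and corn oil/cellulose library 2 (0.403 CPM), both with little Hoxd13. Fish oil/pectin libraries 3 and 4, at 0.654 and 0.647 CPM, had 65.3 and 66.9 CPM of Hoxd13. The part of colon position in the Scnn1g values was not tested. Scnn1b fell by 0.65 ± 0.20 (edgeR, adjusted p = 0.0130), while Scnn1a had -0.13 ± 0.11 (edgeR, adjusted p = 0.381).

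Elsewhere in the list, the desmosomal cadherin Dsg2 fell by 0.36 ± 0.08 (edgeR, adjusted p = 0.00295). Periplakin (Ppl), a linker of desmosomes to keratin filaments, fell by 0.54 ± 0.09 with no overlap between the diets (edgeR, adjusted p = 0.000551). F2rl1, the protease-activated receptor cut by trypsin-like enzymes, had -0.11 ± 0.08 (edgeR, adjusted p = 0.238).

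Other proteases showed little common direction. Of 24 other kallikreins 2 were tested, and Klk1b4 rose by 0.49 ± 0.17 (edgeR, adjusted p = 0.0284) from 1.34 ± 0.312 to 1.95 ± 0.414 CPM (SD, n = 9 and 7), while Klk1b5 had 0.12 ± 0.23 (edgeR, adjusted p = 0.698). Klk1b4 did not pass without corn oil/cellulose library 8 (0.40, adjusted p = 0.0577) or 9 (0.46, adjusted p = 0.0560), or fish oil/pectin library 6 (0.42, adjusted p = 0.0648). As the low level of Klk1b4 is uncertain beside its near copy Klk1, so is this rise. Of 44 other trypsin-like proteases 10 were tested, 2 rose and 1 fell (22.1% and 20.6% of all genes). Htra2, a protease of mitochondria, rose by 0.25 ± 0.06 (edgeR, adjusted p = 0.00303), and Tmprss4, a membrane relative of Tmprss2, by 0.23 ± 0.07 (edgeR, adjusted p = 0.0161). Prss23 fell by 0.50 ± 0.16 (edgeR, adjusted p = 0.0166), a call lost at -0.41 on leaving out fish oil/pectin library 1 (adjusted p = 0.0560) and likewise at library 2 (adjusted p = 0.0566). Tmprss7 had 0.33 ± 0.19 (edgeR, adjusted p = 0.180). Plau, the urokinase gene, averaged 0.134 and 0.0412 CPM and was not tested.

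Genes of differentiated surface epithelium, where several of the proteases are made, were tested for 20 of 24. Of these 5 rose and 1 fell (22.1% and 20.6% of all genes), with a median of 0.02. The simple keratins Krt18 (0.49 ± 0.10, adjusted p = 0.00175), Krt19 (0.36 ± 0.08, adjusted p = 0.00296) and Krt8 (0.31 ± 0.08, adjusted p = 0.00491) rose in edgeR. Grhl2, a transcription factor of epithelial junctions, fell by 0.23 ± 0.07 (edgeR, adjusted p = 0.0103). Of the 15 calls among the named related genes, 7 were lost with the exon length trend removed (Spink4, Tfpi2, Tmprss4, Klk1b4, Krt19, Krt8 and Grhl2). With a leukocyte and stromal marker covariate 14 were lost, in libraries without the GC prefix 14 and in the lower number series 11. Without the prefix Prss23 alone kept its call, and Grhl2 turned to 0.013. A lost call did not always come with a smaller value. With the covariate Tfpi2 was at 0.44 ± 0.15, Scnn1b at -0.85 ± 0.29 and Prss23 at -0.88 ± 0.22, farther from 0 than before. Spink4 (0.59 ± 0.24) and Dsg2 (-0.36 ± 0.13) were only slightly smaller, and the errors of all of these were wider. The other lost calls moved nearer to 0, among them Tmprss4 (0.08 ± 0.10), Krt8 (0.18 ± 0.12) and Grhl2 (-0.07 ± 0.09).

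**Figure D5:**
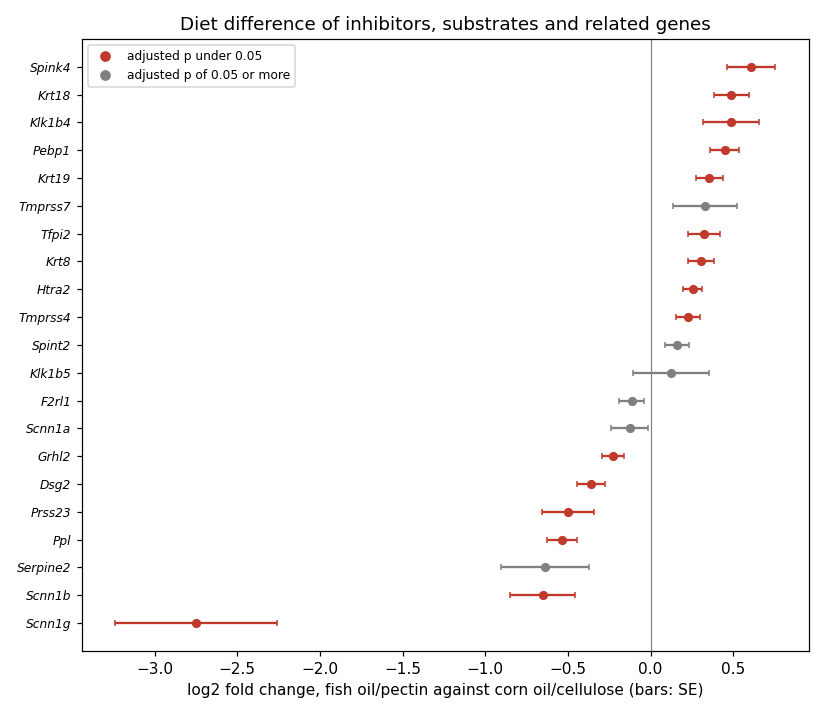
Log2 fold change, fish oil/pectin against corn oil/cellulose (horizontal axis), with SE bars, of the 21 named inhibitors, substrates and related genes tested, red where the adjusted p was under 0.05 in edgeR. In this plot 15 of the 21 are red, with Scnn1g lowest at -2.75 and Spink4 highest at 0.61.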

How the data were processed

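The authors deposited raw read counts per gene symbol, with no normalisation. STAR 2.6.0a, HTSeq 0.11.1 and the GRCm38 build were used, per the submitters' processing notes. Stranded poly(A) libraries were made from 200 ng of RNA, per the labels' protocols. Neither strand setting nor annotation release is given in the sources used here, so genes overlapping on opposite strands are uncertain. No per-sample column was left unused. Libraries of a diet differed beyond sampling noise in all 57 pairs (chi-square per degree of freedom 8.20 to 141).

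From these counts, edgeR 4.0.16 (R 4.3.3) gave a robust quasi-likelihood test with TMM scaling and filterByExpr by diet, which kept 13825 genes holding 99.9% of counts. The model held diet and name form, with Benjamini-Hochberg adjustment over all genes kept and a threshold of 0.05. Each SE is the log2 fold change, without its sign, divided by the root of F. CPM use TMM factors. Residual SDs are of log2(CPM + 0.1). Exon lengths and coordinates came from GENCODE M21, which matched 98.8% of symbols. DESeq2 1.42.0 and limma 3.58.1 were alternatives. The fitting code was tested on simulated data.

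The text names all 10 members, up to 4 genes with the lowest p from each of 5 lists, and 8 further inhibitors, receptors, channel subunits and proteases. A gene that this rule chose is not reported here and was not replaced. Hoxd13 and Krt20 were added after their values were seen. Members, lists and settings were chosen with earlier results of these data known.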

Additional observations from a re-analysis of the deposited data

Results flagged for a closer look

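Some libraries lay far from the rest of their diet by Dixon's test, applied to 30 groups of values, where chance flags about 1 in 20. That rate does not hold for Prss22, at 0 counts in 11 libraries, where a few counts can bring a flag. Fish oil/pectin library 7 gave 4 of the 6 flags, with 5.44 CPM of Prss27 (next 1.91), 0.229 CPM of Prss22 (next 0.0660), 454 CPM of Tmprss2 (next 707) and a Spint2/Spint1 ratio of 6.44 (next 5.15). Corn oil/cellulose library 6 had 0.178 CPM of Prss22, which is 3 counts, and corn oil/cellulose library 7 had 1.46 CPM of Prss27 (next 0.871). The part of colon position, or of any other feature, in the values of fish oil/pectin library 7 was not tested.

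The diet difference of 5 related genes differed between name forms by the interaction term in edgeR, given as GC-named minus other libraries on the log2 scale. The values were 0.46 for Spint2 (adjusted p = 0.0180), 0.58 for Krt18 (0.0438), 0.46 for Krt19 (0.0378), 0.40 for Krt8 (0.0488) and -0.36 for Grhl2 (0.0486). Leaving out each library in turn, Spint2 passed in 15 of 16 fits, Krt19 in 7, Krt18 in 6, Grhl2 in 4 and Krt8 in 3.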

How the results depend on the processing

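The diet contrast called 5909 genes and 3 members; this became 3502 and 1 with the replicate block, 900 and 1 in libraries without the GC prefix, 2230 and 0 in libraries of the lower number series, 22 and 0 with a leukocyte and stromal marker covariate, and 3565 and 1 at an adjusted p of 0.01. The 1 member was Prss27 with the block, Spint1 (-0.38) in libraries without the GC prefix and Klk15 at an adjusted p of 0.01. Spint1 was not called in the main fit, so none of the 3 members called there was called without the prefix. With at least 10 counts in every library 5724 genes and 1 member were called. Klk15 (lowest count 1) and Prss27 (lowest count 9) were not tested under that filter. Leaving out each library in turn gave 5043 to 6001 genes and 2 to 4 members. For the name form, leave-outs called 0 to 2 members and other settings 2 to 3, and for the difference between name forms 6 to 1765 genes (6 without fish oil/pectin library 2) and 0 to 2 members. Without fish oil/pectin library 7, 1 gene of the substrate and receptor list rose. Klk15 stayed at or below -1.43 in every fit that tested it. With the covariate Klk15 was at -2.13 ± 0.64, Prss8 at 0.16 ± 0.10 and Prss27 at 0.89 ± 0.62 (SE). Over all settings the 21 named related genes kept their side of the threshold in 548 diet fits, lost a call in 64 (6 with the block), gained it in 10 and changed sign in 5. Among the sign changes, Grhl2 lost its call too. Signs turned for Prss8 (-0.00024), Klk1 (-0.25), Prss32 (-0.17) and Klk1b5 (-0.12) with the exon length trend removed, for Klk1 (-0.23), Prss32 (-0.22), Spint2 (-0.13), Klk1b5 (-0.18) and Grhl2 (0.013) in libraries without the GC prefix, and for Klk1 (-0.0056), Prss32 (-0.11) and Klk1b5 (-0.23) with the covariate. Klk1 and Prss32 lie near 0, and their sign also turned in some leave-outs. In the name form contrast Klk1 was at 0.00094 with upper quartile scaling and at -0.077 to 0.042 in leave-outs. The difference between name forms ran over leave-outs from -0.012 (without fish oil/pectin library 1) to 0.29 for St14 and from -0.24 (without library 7) to 1.11 for Prss27. Same-numbered libraries correlated at -0.07 to 0.55, over 0.1 in 4 of 7 pairs, and 2 of 14 libraries correlated best with their own number, so the numbers were not taken as pairs. The cause of these changes was not tested. Counting depth limits Klk10, Prss22 and Prss27.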
